A study of Mus musculus with 26 samples.

Results

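Adult mouse pancreatic islets were set against mouse embryonic stem cells (ESC) on one panel of microRNA assays. The comparison takes the 3 islet samples and the 6 ESC samples, 3 of line D3 and 3 of line R1, out of 26 samples in the series, and all 315 assay positions of the panel. It sets a mature endoderm-derived tissue beside pluripotent cells, assay by assay. The islets were primary tissue isolated from C57BL/6 mice. Both ESC lines were grown with leukemia inhibitory factor on mouse embryonic fibroblast feeders that mitomycin-C had inactivated, and the labels do not say whether feeders were removed before RNA extraction. The labels name no separate animals or cultures behind the replicate numbers, so the variation among samples behind the p-values may be technical. Each ESC group is a single established line. The other samples give values set beside the results. They also entered the choice of reference assays and the spread estimate shared by the linear model, and so affect the errors and p-values below. They include 5 clones of induced pluripotent stem cells (iPSC) kept on the same feeders. Another 5 samples are tail-tip fibroblasts, the cell type the iPSC were derived from. A further 4 samples are iPSC clones 2 and 3 given activin A for 5 days without feeders. The last 3 samples are primary adult hepatocytes.

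MicroRNAs are short RNAs that guide the Argonaute proteins to messenger RNAs and lower their translation and stability. Mouse ESC are known for clusters of microRNAs that share seed sequences and are transcribed together, while the let-7 family is held low in pluripotent cells and accumulates on differentiation. Pancreatic islets are known for a small number of endocrine microRNAs that act on insulin secretion and beta-cell mass. The files name each assay by a letter and a number, such as A12 or B74, and not by microRNA. The 4 letters are called plates here. No position could be paired with a microRNA name or a sequence, so neither the identity of an assay nor the markers of islets, exocrine tissue, feeders or pluripotent cells could be checked, and every result below is given by position.

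Each assay was read as the threshold cycle (Ct) of stem-loop RT-qPCR, in which a looped primer primes cDNA from the mature microRNA and a fluorescent probe follows its amplification. One cycle less stands for about a doubling of template, and Ct values of different assays are not compared with each other because their primers differ. An assay is called detected below a Ct of 35. Islet samples had 273, 267 and 268 detected assays, D3 samples 264, 264 and 258, and R1 samples 257, 241 and 270. The means were 269.3 ± 3.21 for islets (SD, n = 3) and 259.0 ± 10.0 for ESC (SD, n = 6), with a two-sided exact permutation p of 0.0714, where 0.0238 is the smallest that 3 against 6 samples allow. In the 9 samples, 184 assays were detected in every one and 8 in none. Of 2835 values, 253 (8.92%) have no Ct, 220 lie between 35 and 40, and 28 of these are exactly 36, which may have been filled in. In 15 cases a sample had no Ct although the median Ct of its cell type was below 30, so some missing Ct values came from assays that were otherwise well detected. Single wells also stood apart. In 20 assays 1 islet sample lay more than 5 cycles from both others, which was islet replicate 1 in 16 assays, replicate 3 in 4 and replicate 2 in 0.

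Relative expression was calculated on a log2 scale as the mean Ct of reference assays minus the Ct of the assay, with Ct values that were above 35 or empty set to 35. The reference was the mean of the assays detected in all 26 samples, taken separately for plates A and B together (87 assays), plate C (26) and plate D (9). Fold changes below are islets over ESC, with the 2 lines weighted equally. All are differences on this log2 scale, with SE and Benjamini-Hochberg adjusted p from limma, a linear model with a shared estimate of the spread. Cells of a type that are fewer and cells with less of an RNA cannot be told apart in such bulk samples.

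Islets and ESC differed at a large part of the panel and in both directions. Among the 295 tested assays limma called 124 at an adjusted p below 0.05 (42.0%). In islets 61 were higher (20.7%) and 63 lower (21.4%), and 147 had an unadjusted p under that value (49.8%). The 61 higher assays had a median log2 fold change of 3.98 and the 63 lower ones of -3.89, against 0.14 over all tested assays. More than 16-fold changes, over 4 on the log2 scale, were found at 30 assays in the higher direction and 31 in the lower. All 61 higher assays were detected in the 3 islet samples and 32 of them in the 6 ESC samples too. Of the 63 lower assays 60 were detected in all ESC samples and 44 in all islet samples. Over the 295 tested assays 251 were detected in all islet samples and 208 in all ESC samples. Detection in the cell type where a called assay is higher follows in part from the limit of 35. The split between directions depended on the reference. With raw Ct and no reference, 81 were called higher and 32 lower, so that 71.7% of calls were higher in place of 49.2%, and with the median Ct of detected assays it was 80 and 52 (60.6%). Under these settings the median over all tested assays moved from 0.14 to 1.27 and 0.59 on the log2 scale. Of the calls above, 55 higher and 32 lower assays were called alike with raw Ct, and 0 were called in opposite directions.

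Over the tested assays the median difference in raw Ct, islets minus ESC, was -2.75 cycles on plate A, -1.88 on B, 0.307 on C and -0.77 on D. In the reference assays, the mean Ct on plates A and B was 25.6 ± 0.876 for islets (SD, n = 3) and 27.6 ± 0.579 for ESC (SD, n = 6), a difference of -1.97 cycles, with a two-sided exact permutation p of 0.0238, the smallest possible, and 0.0714 after Benjamini-Hochberg adjustment over the 3 sets. No islet sample overlapped with an ESC sample in this mean. On plate C the means were 26.6 ± 0.729 and 26.7 ± 0.846, and on plate D 26.8 ± 0.392 and 26.5 ± 0.614 (SD, n = 3 and 6), with exact permutation p of 0.857 and 0.476. The same mass of RNA, 5 ng, entered each reverse transcription according to the labels. The source of the lower Ct on plates A and B was not tested.

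**Figure D1:**
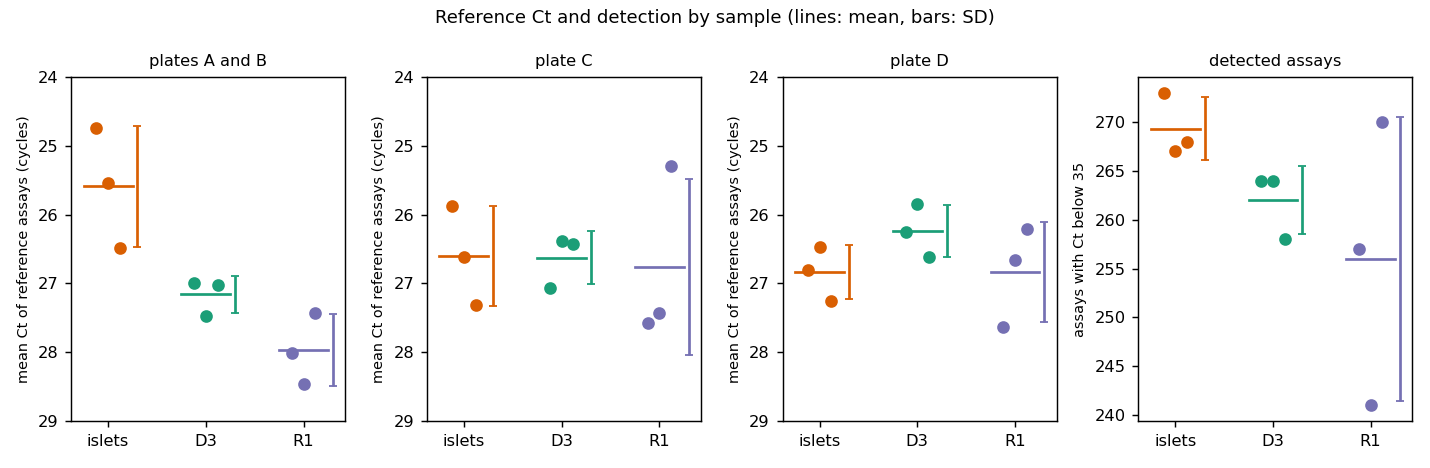
Mean Ct of the reference assays in cycles (inverted axis) on plates A and B, plate C and plate D, and number of assays with a Ct below 35, one point per sample for islets and ESC lines D3 and R1, with the group mean as a line and the SD as a bar (n = 3 each). Islet samples lie at 24.7 to 26.5 cycles on plates A and B, below every ESC sample, and within the ESC range on plate D.

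Assay A12 had the largest rise in islets. Its Ct was 17.0, 16.0 and 18.3 in islets, 33.6, 34.1 and 32.7 in D3, and 39.4, 31.1 and 32.3 in R1. Islets were thus more than 12 cycles ahead of every ESC sample, a log2 fold change of 14.06 (SE 0.90, limma adjusted p 1.48e-10). Outside islets A12 stayed at high Ct, 32.6 to 33.3 in hepatocytes, 31.4 to 33.8 in the iPSC clones and 29.2 to 32.1 after activin, and it was detected in 2 of 5 fibroblast samples.

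Assays A87 and C19 also had their lowest Ct in islets among all cell types. A87 had a Ct of 22.9, 22.8 and 24.9 in islets and between 31.1 and 33.5 in the 6 ESC samples (median 31.8), a log2 fold change of 6.53 (SE 0.86, limma adjusted p 6.49e-06). It was at 30.4 to 32.3 in iPSC and detected in 2 of 3 hepatocyte samples. C19 had 24.3, 25.1 and 30.2 in islets and 32.02 to 36 in ESC (median 32.5), with a log2 fold change of 6.19 (SE 0.96, limma adjusted p 3.10e-05). The 3 islet values of C19 were uneven, and replicate 3 lay within the range of the activin-treated samples (28.4 to 32.7), though still ahead of every ESC sample. By the correlation of log2 relative expression over the 26 samples, the assays most like A12 were B56 (r = 0.860), A87 (0.846) and A48 (0.842). These correlations describe profiles that share plates and samples, and are given with no test.

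Assay A43 had a Ct of 24.9, 25.2 and 26.2 in islets. In ESC 2 of 6 samples were below 35, at 34.58 and 34.98, 3 were above and 1 had no Ct, so that the groups were at least 8 cycles apart. The rise came to 7.53 on the log2 scale (SE 1.35, limma adjusted p 0.000151), with 4 ESC samples at the limit of 35. A43 was also present at 25.3 and 28.4 in 2 of 3 hepatocyte samples and at 25.6 to 30.8 in 4 of 5 fibroblast samples.

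A further group of assays was high in islets and in other differentiated cells as well. B14 had a Ct of 20.65, 22.04 and 22.08 in islets and between 27.3 and 32.7 in ESC (median 29.04), a log2 fold change of 5.74 (SE 0.78, limma adjusted p 8.34e-06). It reached 21.6 to 22.4 in hepatocytes and 18.5 to 26.2 in fibroblasts, and stayed at 26.8 to 30.2 in iPSC. C22 had 23.4, 23.4 and 24.5 in islets and 26.7 to 32.3 in ESC (median 29.7), a log2 fold change of 5.60 (SE 0.81, limma adjusted p 1.40e-05), with 24.6 to 26.6 in hepatocytes and 20.9 to 26.9 in fibroblasts. C25 had 20.4, 21.1 and 21.1 in islets against 25.5 to 27.6 in ESC (median 26.5), and 21.4 to 23.5 in hepatocytes. Neither B14, C22 nor C25 overlapped between islets and ESC. The fold change of C25 was 5.50 (SE 1.54, limma adjusted p 0.00718). One iPSC clone had no Ct at C25 and was set to 35, and with values at the limit treated as missing the SE was 0.879. In a fit on the 9 islet and ESC samples it was 0.525, and with the limit at 40 the adjusted p of C25 was 0.0529.

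Among the 10 largest rises, those of B64, A18 and C26 leaned on islet replicate 1. B64 had a Ct of 15.5 in that sample and 28.0 in both others, against 32.3 to 35.7 in the 5 ESC samples with a Ct. The rise at B64 came to 8.02 on the log2 scale (SE 1.65, limma adjusted p 0.000543), and to 4.28 (adjusted p 0.000760) without islet replicate 1. A18 had 21.2, 27.5 and 30.2 in islets and 1 of 6 ESC samples below 35, with a log2 fold change of 6.62 (SE 1.27, limma adjusted p 0.000304), and 4.48 (adjusted p 0.00425) without replicate 1. C26 had 19.6, 34.6 and 32.8 in islets and 33.5 to 36.4 in ESC. Its log2 fold change of 5.59 (SE 1.85, limma adjusted p 0.0197) became 1.27 (adjusted p 0.252) without islet replicate 1, and C26 overlapped between islets and ESC. Fibroblasts had 29.1 to 29.97 at C26 in 4 of 5 samples. B64 and A18 thus remained called without that sample and C26 did not. The assays most like B64 by correlation were B26 (r = 0.811), C02 (0.478) and A12 (0.446). B64 and B26 share a treated sample, replicate 2 of activin-treated clone 2, with Ct values of 3.26 and 2.82.

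**Figure D2:**
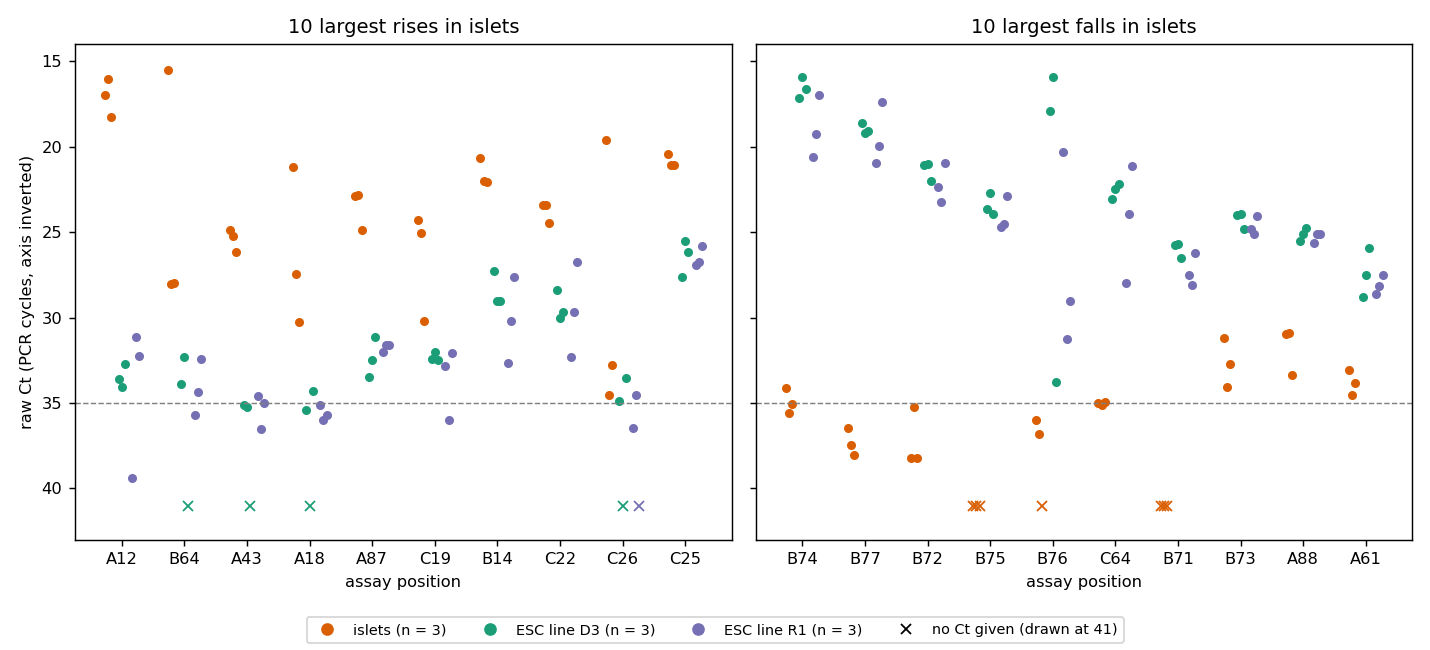
Raw Ct in PCR cycles (inverted axis) of the 10 largest rises and 10 largest falls in islets, one point per sample for islets, ESC line D3 and ESC line R1 (n = 3 each). The dashed line marks a Ct of 35 and crosses drawn at 41 mark samples with no Ct. At A12 the islet points lie at 16.0 to 18.3 and the ESC points at 31.1 or above, at B74 the order is turned, and at B64, A18 and C26 1 islet sample lies far above the other islet samples.

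Of the 10 largest falls in islets, B73, A88 and A61 were still detected in all 3 islet samples, and the others were above 35 or without a Ct in at least 2 of them. B74 had a Ct of 17.2, 15.9 and 16.6 in D3 and 20.6, 19.3 and 17.0 in R1. In islets it was 34.1, 35.6 and 35.1, so that 1 of 3 islet samples was detected. The fall came to -18.91 on the log2 scale (SE 0.95, limma adjusted p 7.09e-12).

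Assay B77 had 18.6, 19.2 and 19.1 in D3, 21.0, 19.9 and 17.4 in R1, and 36.4, 37.4 and 38.1 in islets, with a log2 fold change of -17.78 (SE 1.02, limma adjusted p 4.01e-11). B72 had 21.0 to 23.2 in ESC (median 21.5) and 35.2 to 38.2 in islets, with -15.19 (SE 0.97, limma adjusted p 1.48e-10). B71 had 25.7 to 28.1 in ESC (median 26.4) and no Ct in any islet sample, with -10.32 (SE 0.95, limma adjusted p 3.70e-08). Where every islet sample stood at the limit, as at B77, B72 and B71, the value depends on that limit. With the limit at 32 and at 40 it ran from -14.78 to -20.09 for B77 and from -7.32 to -15.32 for B71.

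B73, next to B72 and B74, was detected in all 3 islet samples, with a Ct of 31.2, 34.1 and 32.7 in islets and 23.96 to 25.1 in ESC (median 24.4). The log2 fold change came to -10.17 (SE 0.84, limma adjusted p 7.41e-09). The profiles of B74, B77, B72 and B71 were nearly parallel over the 26 samples. The correlation of B74 was 0.994 with B77, 0.993 with B72 and 0.983 with B71, and that of B77 with B72 was 0.994. These too are descriptions over samples that share plates and fall into pluripotent and other cells.

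B75 and B76 fell as well, with wider errors. B75 had 22.7 to 24.7 in ESC (median 23.8) and no Ct in islets, a log2 fold change of -13.22 (SE 3.77, limma adjusted p 0.00804). Its SE took in a hepatocyte sample with a Ct of 7.98 while the other hepatocyte samples had none. With Ct values below 14 left out, the fold change of B75 was -13.08 (SE 0.960, limma adjusted p 1.29e-09). B76 was uneven inside the ESC lines themselves, with 17.9, 16.0 and 33.8 in D3 and 20.3, 31.3 and 29.02 in R1. Both lines thus held samples more than 8 cycles apart, and the iPSC clones ranged from 17.1 to 29.6. In islets B76 was 36, 36.8 and without a Ct, so that ESC and islets did not overlap, with a log2 fold change of -12.26 (SE 3.48, limma adjusted p 0.00788).

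On the other plates, C64 had a Ct of 23.1, 22.5 and 22.2 in D3, 28.0, 23.9 and 21.1 in R1, and 35.02, 35.09 and 34.93 in islets, a log2 fold change of -11.61 (SE 1.04, limma adjusted p 2.51e-08). C64 was at 20.7 to 23.8 in iPSC and at 37.2 or above in every fibroblast and hepatocyte sample that had a Ct.

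A88 and A61 were lower in islets but not limited to pluripotent cells. A88 was even across ESC, from 24.8 to 25.6 (median 25.1), and had 31.0, 30.9 and 33.3 in islets, a log2 fold change of -8.50 (SE 0.61, limma adjusted p 8.68e-10). It was detected in all 5 fibroblast samples, at 27.02 to 33.3, and in no hepatocyte sample. A61 had 25.9 to 28.8 in ESC (median 27.9) and 33.1, 34.6 and 33.8 in islets, with -8.03 (SE 0.64, limma adjusted p 5.25e-09). In fibroblasts A61 was as low in Ct as 19.99 and at most 27.9. The ESC were grown on embryonic fibroblasts, and of the 63 assays lower in islets 36 were detected in all 5 tail-tip fibroblast samples and 10 in none. Over the 295 tested assays these counts were 171 and 22. Detection in all fibroblast samples was thus about as common among the lower assays as on the panel, and detection in none was more common among them. The part of feeder RNA in the fall of A61 and the other fibroblast-positive assays was not tested. B71, B72, B75 and C64 were detected in 0 of 5 tail-tip fibroblast samples. Tail-tip fibroblasts are not the embryonic feeders, of which the series holds no sample.

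Detection alone, which needs no reference, gave short lists. In every ESC sample and in no islet sample 11 of 315 assays were detected (3.49%). These were B71, B72, B75, B76, B77, C11, C13, C29, C61, C67 and C74. All 11 also passed the test as lower in islets, but the list and the test used the same values. The calls are therefore not separate support for the list. C29 had a Ct of 26.3 to 28.3 in ESC, and C67 had 26.1 to 29.3, with log2 fold changes of -7.85 and -7.40 (limma adjusted p 2.70e-06 and 8.49e-06). Of the 11, 9 were detected in all 5 iPSC clones and 11 in all 4 activin-treated samples, neither of which entered the choice. Over the 295 tested assays these counts were 214 and 242, so such detection was common on the panel. In fibroblasts 0 of the 11 were detected in every sample and 8 in none, and in hepatocytes 0 and 6. Over the tested assays 171 were detected in every fibroblast sample and 22 in none. For hepatocytes these counts were 181 and 49. After activin, C29 reached 20.6 to 25.4, C61 22.1 to 27.3 and C67 22.1 to 25.4, whereas B71 stayed at 23.98 to 27.4.

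The reverse list, detected in every islet and no ESC sample, held 7 assays (2.22%), which were A21, B17, B32, C03, C89, D03 and D23. Their levels in islets ranged widely. B17 had a Ct of 27.2, 30.3 and 30.6 in islets and 35.5 or above in ESC, a log2 fold change of 3.67 (SE 1.05, limma adjusted p 0.00820). Without islet replicate 1 the value for B17 was 3.00 (limma adjusted p 0.0596). B17 was also detected in all 4 activin-treated samples, at 30.85 to 33.7. D23 had 30.3, 30.2 and 32.5 in islets, with 4.28 (SE 1.18, limma adjusted p 0.00648). The other five did not pass the test. B32 had 30.8, 31.8 and 31.4 in islets and a log2 fold change of 1.68 (SE 0.94, limma adjusted p 0.157). A21 had 16.4 in islet replicate 1 against 33.4 and 33.1 in the others, and an adjusted p of 0.113. C89 and C03 were at 32.2 to 34.5 and 32.9 to 34.1 in islets, D03 at 32.9 to 33.4. C03 and C89 were also detected in 0 of the iPSC, fibroblast, hepatocyte and activin-treated samples. Of the 7 assays, 4 were detected in no iPSC clone, 3 in no activin-treated, 3 in no fibroblast and 3 in no hepatocyte sample. Over the 295 tested assays these counts were 12, 8, 22 and 49. Without replicate 1 of D3 the list held 11 assays. These calls depend on the limit and on the reference. With the limit at 32, B17 and D23 no longer passed, at 0.68 and 1.47 on the log2 scale. With the limit at 40, A21 passed at 10.01, B32 at 5.95 and C89 at 6.61 (limma adjusted p 0.0158, 0.000925 and 1.99e-05). With raw Ct and no reference, A21, B32 and C89 passed at 7.40, 3.65 and 1.94 (limma adjusted p 0.042, 2.81e-06 and 0.00535). B17 and D23 still passed there.

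Runs of at least 4 neighbouring positions called in the same direction were found at 3 places, and were looked for after the values were known. A run counts calls only and does not measure whether neighbours vary together over samples. B71 to B78 were 8 neighbours all lower in islets. B78 at the edge had a Ct of 28.8 to 33.0 in ESC and 31.8, 34.3 and 36 in islets, a log2 fold change of -5.71 (SE 0.78, limma adjusted p 8.25e-06), with overlap in raw Ct. B07 to B10 were higher in islets, at 3.39, 3.07, 5.30 and 2.78. At B07 the islet Ct was 23.0, 25.4 and 24.8, below the ESC range of 26.9 to 33.2, and hepatocytes had 23.4 to 24.9. B08 was at 27.0 to 30.2 in islets and detected in 0 of 3 hepatocyte samples. B62 to B65 were also higher in islets, with 2.45 at B62, 2.80 at B63, 8.02 at B64 and 2.79 at B65. Without islet replicate 1 the value at B64 was 4.28. By plate, 22 of 95 tested assays were higher and 16 lower on A, 24 and 25 of 92 on B, 13 and 20 of 85 on C, and 2 and 2 of 23 on D.

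**Figure D3:**
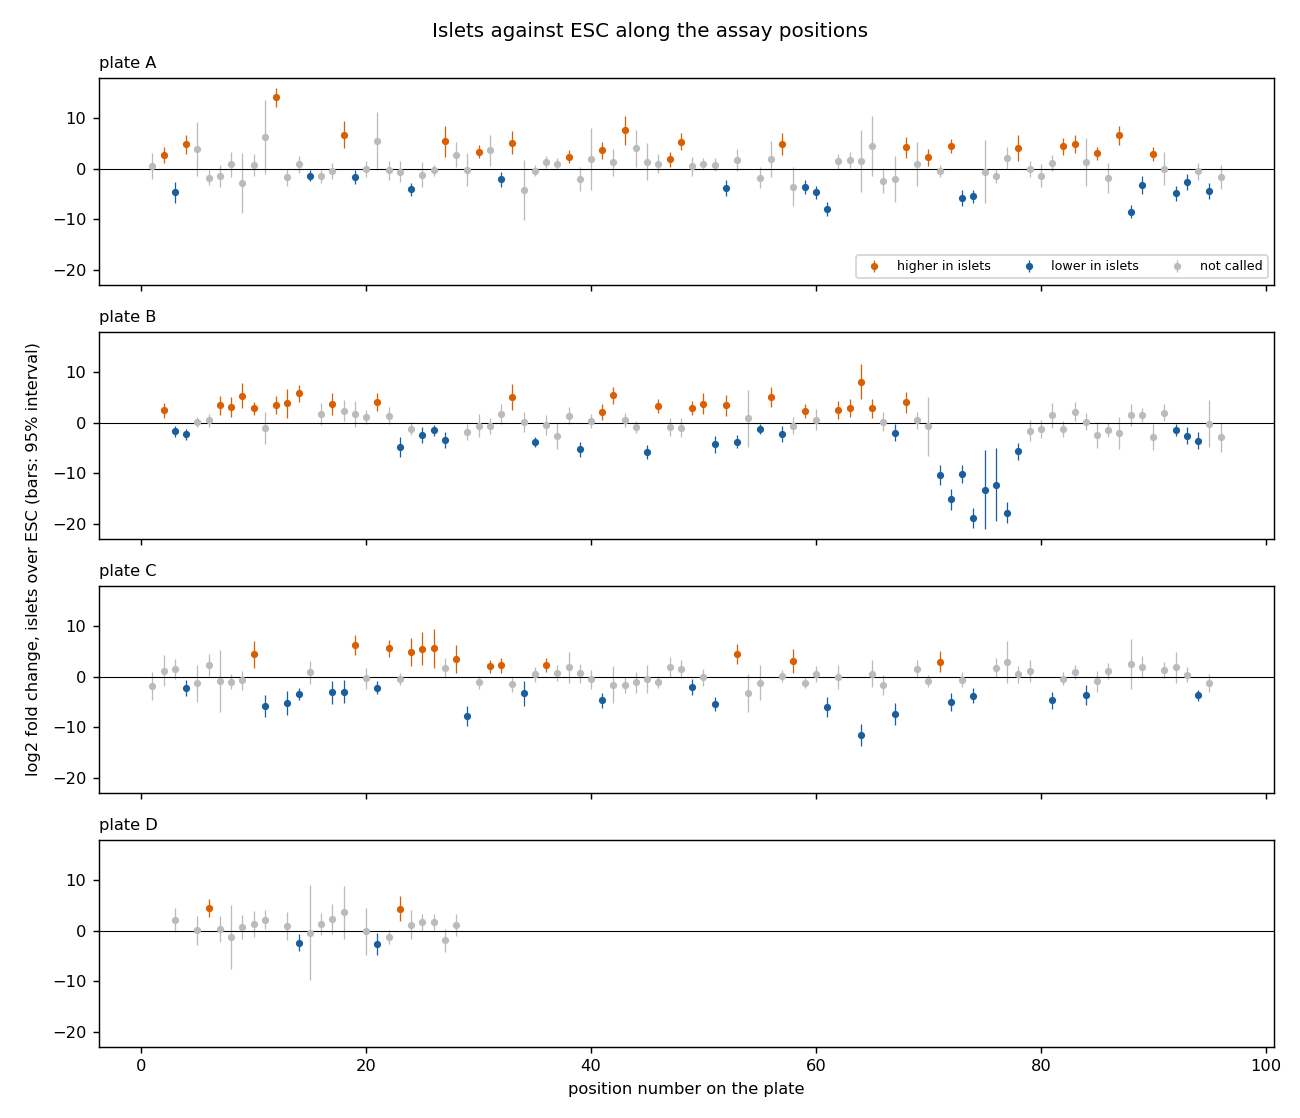
Log2 fold change of islets over ESC at each tested position of plates A to D, with the 95% interval as a bar, coloured by the call (adjusted p below 0.05). The deepest stretch is B71 to B78 on plate B, and A12 on plate A stands at 14.06.

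Detection of these assays in the remaining cell types is given as counts, with no test of a difference. Of the 61 assays higher in islets, 44 were detected in all 3 hepatocyte samples, 36 in all 5 fibroblast samples and 42 in all 5 iPSC clones. Of the 63 lower ones, 33 were detected in all hepatocyte samples, 36 in all fibroblast samples and 57 in all iPSC clones. Over the 295 tested assays these counts were 181, 171 and 214. B45 may stand for the lower assays that islets still held well. It had 26.5, 28.1 and 27.2 in islets and 22.3 to 24.7 in ESC, with a log2 fold change of -5.82 (SE 0.70, limma adjusted p 2.20e-06), and 26.9 to 27.1 in hepatocytes. B45 is named outside the rule, after its values were seen, as are A57 and A04. A57 had 21.1, 19.9 and 19.8 in islets, 25.7 to 27.6 in ESC and 30.2 to 31.5 in hepatocytes, with 4.83 (SE 1.06, limma adjusted p 0.000995). A04 had 18.7, 16.4 and 22.3 in islets, 24.6 to 26.5 in ESC and 26.2 to 27.8 in hepatocytes, with 4.77 (SE 0.90, limma adjusted p 0.000258).

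**Figure D4:**
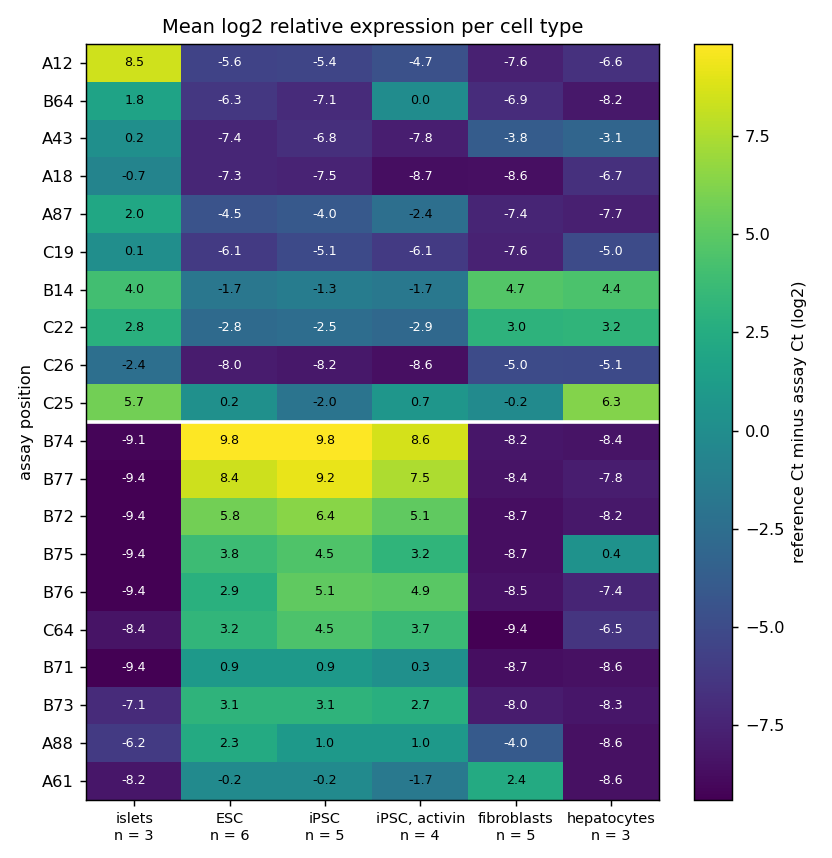
Mean log2 relative expression (reference Ct minus assay Ct) of the 10 largest rises (top) and 10 largest falls (bottom) in islets, ESC, iPSC, activin-treated iPSC, fibroblasts and hepatocytes, with n samples under each column and Ct limited to 35. A12 is at 8.5 in islets and -4.7 or lower elsewhere, and the B74 row is at 8.6 or higher in the 3 pluripotent or activin-treated groups. The hepatocyte value of B75 and the activin value of B64 each contain 1 well with a Ct of 7.98 and 3.26.

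At 171 tested assays no difference passed the threshold. Their 95% intervals reached a median of 2.04 to either side. At 18 of the 171 the whole interval stayed within a 4-fold difference, and at 0 within a 2-fold one. Of the assays detected in all 9 samples and not called, the narrowest intervals were at C59, B05, A35, C46 and A37. At B05 the log2 fold change was 0.08, with an interval of -0.95 to 1.11, and at A35 it was -0.45, from -1.57 to 0.66. C46 stood at -1.12 (-2.25 to 0.02) and A37 at 0.98 (-0.16 to 2.13). C59 stood at -1.22 with an interval of -2.24 to -0.19 and a limma adjusted p of 0.0527, and it passed the threshold under 12 of 27 other settings. Raw Ct of B05 was lower in all islet samples (23.04, 25.06 and 25) than in ESC (25.2 to 28.0), so its near-zero value holds relative to the reference of plates A and B only.

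Raw Ct values alone, with no model, separated the cell types at 136 of the 295 tested assays (46.1%). All islet samples were lower in Ct than all ESC samples at 98 (33.2%) and higher at 38 (12.9%). Of the 61 assays called higher in islets 57 were among the former, and of the 63 called lower 36 were among the latter. On the log2 relative scale 66 assays lay higher and 69 lower in all islet samples than in all ESC samples. That scale subtracts the reference Ct, which was lower in islets on plates A and B, so a more even split is in part built in. The source of the imbalance in raw Ct was not tested.

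The comparisons of islets with each ESC line share the islet samples. Against D3 alone limma called 107 of 293 tested assays (36.5%), and against R1 alone 106 of 295 (35.9%). The log2 fold change of A12 was 14.79 against D3 and 13.32 against R1, that of B74 was -19.69 and -18.13, and that of B72 -15.21 and -15.18. Between the lines themselves limma called 0 of 273 assays (0.0%), with 4 at an unadjusted p under 0.05 (1.47%). Absolute log2 differences had a median of 0.55 between the lines and of 1.94 between islets and ESC. Intervals between the lines reached a median of 2.12 to either side and stayed within a 4-fold difference at 49 assays, so a 4-fold difference between D3 and R1 remains possible at the others. Over the 295 tested assays, samples of D3 and R1 correlated with a median r of 0.894 (9 pairs), islet samples among themselves with 0.783 (3 pairs) and islets with ESC with 0.393 (18 pairs), as a description of profiles that share plates.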

How the data were processed

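Per the labels' protocols, 303 microRNAs were profiled by TaqMan assays from 5 ng of RNA per reaction over 40 PCR cycles, with the small nuclear RNA RNU6 for normalization. The authors deposited raw Ct values for 315 positions without microRNA names. Threshold software is not given in the sources used here. RNU6 of the ESC samples was not used here, so the mean Ct of 122 assays served as the reference, with plates A and B in one set because the authors' deposited log2 table subtracts one common value there (-2.38 for islets against hepatocytes) and others on C (1.12) and D (-1.93).

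Assays with a Ct below 35 in at least 50% of islet or ESC samples were tested. Group means of all 26 samples, with the treated samples of a clone averaged (24 columns), were fitted with limma 3.58.1 in R 4.3.3. Python 3.11.15, numpy 2.4.6, pandas 2.3.3, scipy 1.17.1 and matplotlib 3.10.9 were used. On simulated data the islet comparison (295 assays) recovered 28.3% of 4-fold and 79.7% of 16-fold changes and called 0.681% of unchanged assays. The simulated noise was normal with a single spread per assay. It had no Ct limit, no wells standing apart and no reference difference between cell types, so rates in the real comparison may differ. Assays were named by rule: the 10 largest rises and falls among called assays detected in all samples of the higher cell type, the 5 lowest in Ct among those detected in one cell type alone, and the 5 narrowest intervals among uncalled assays. Full lists of 11 or fewer and runs of neighbours are given besides, and other exceptions are stated. The samples, assays, marker lists and tests were chosen with earlier results of these data known. Marker lists of islet, exocrine, pluripotent, fibroblast, hepatocyte, blood and endothelial microRNAs could not be tested without names. Alternatives changed the reference, the limit, the filter, the samples and the pairing. The number of samples and the Ct level, not a count, limit precision.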

Additional observations from a re-analysis of the deposited data

Results flagged for a closer look

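Among 34 quantities (named assays, the number of detected assays and the reference means) examined for a sample far from the others among the 6 ESC samples, 1 was picked out, and chance picks out about 1 in 20. At C64, replicate 1 of R1 had a log2 relative expression of -0.42, with a Ct of 28.0 against 21.1 to 23.9 in the other 5 ESC samples. It was still below every islet sample in Ct.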

How the results depend on the processing

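Across 28 settings, 31 of the 61 higher and 26 of the 63 lower assays were called in the same direction wherever they were tested, A12, B14, B64, B74, B77 and C64 among them. When only assays detected in all 9 samples entered, 184 were tested, 79 called and 33 higher. With detection asked of the samples of each line comparison, 70 of 209 were called against D3 and 64 of 193 against R1. Raw Ct gave 32 lower calls. On the log2 relative scale 66 assays lay higher and 69 lower in all islet samples. Detected in islets alone were 20 assays with the limit at 32 and 1 with any Ct counted, and in ESC alone 4 with any Ct. The difference in detected assays was 22.33 with the limit at 32 (exact permutation p 0.0238) and 12.53 without replicate 3 of R1 (0.0357). Leaving out each sample in turn gave 105 to 121 calls, 48 to 62 higher and 52 to 61 lower, 94 to 101 against D3, 85 to 97 against R1 and 0 between lines. Detected in islets alone were then 7 to 11, in ESC alone 11 to 14, without overlap 98 to 128 and 38 to 55. Each of these criteria loosens when a sample is left out, so the ranges are no check on a fall in the counts. The difference in detected assays was 6.73 (without replicate 2 of R1) to 12.53. Reference means differed by -2.42 to -1.55 cycles on plates A and B, -0.45 to 0.28 on C (above 0 without islet replicate 1, R1 replicate 1 or R1 replicate 2) and 0.10 to 0.52 on D. Without an islet sample the smallest exact permutation p for A and B was 0.0714. Replicate numbers did not pair the samples (correlations of deviations -0.145 to 0.196), and with the replicate number as a block 135 assays were called, against 149 in the same fit on 9 samples without it. Added after the data were seen were 137 calls with Ct below 14 left out, 136 with unexpected empty wells left out, 127 without islet wells standing apart and 154 without hepatocytes and fibroblasts.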

Other observations

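Very low Ct values were not spread evenly over the series. Of 24 values below 14, 3 were in islets, 0 in ESC and 15 in hepatocytes. Most of the hepatocyte values were on plate A in hepatocyte replicate 1, a sample that also entered the shared spread of the fit. A05 had a Ct of 10.7 in islet replicate 3 against 26.96 and 25.3 in the other islet samples, A11 had 10.7 in that sample against 36 and 34.9, and A65 had 7.75 in islet replicate 1 against 23.9 and 26.6. None of A05, A11 and A65 was called between islets and ESC (limma adjusted p 0.222, 0.157 and 0.213), with log2 fold changes of 3.85, 6.18 and 4.43. A05 was detected in every sample of the series, so its low value also entered the reference of plates A and B. With Ct values below 14 left out, 74 assays were called higher in islets and 63 lower.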
